A study of Mus musculus with 20 samples.

Results

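Ankrd1, Ankrd2, Csrp3, Xirp1, Xirp2, Mustn1, Igfn1, Fhl1, Flnc and Hspb7 are muscle genes known to respond to stretch, load or fibre damage, and most of their proteins sit at or near the Z-disc, the border between neighbouring sarcomeres. These 10 genes, of 54532 in the count tables, were selected on their names with measured values of the same libraries in view, so their response to surgery is given as a description and not as a test. All 10 were found under 1 Ensembl gene each and all 10 passed the filter on low counts in each of the 5 comparisons. RNA-seq was done on plantaris muscles of male C57BL/6J mice aged 5 months, 10 days after surgery. The surgery was either MOV, in which part of the synergist gastrocnemius and soleus muscles is cut away on both sides so that the plantaris takes over their load, or a sham operation. Each mouse was injected with 50 µL of control lentivirus into the left plantaris and 50 µL of lentivirus carrying a miR-1 mimic into the right, so every muscle in the study, sham control included, had surgery and virus. This gave 5 libraries in each of 4 groups, named sham control and sham mimic, or MOV control and MOV mimic. The virus drives its insert from a CMV promoter that is not restricted to muscle, and it does not reach every fibre. Left and right muscles share a mouse, but the labels do not say that equal numbers do, and sham and MOV mice are different animals.

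A sarcomere carries force along actin, myosin and titin, and the Z-disc is where actin and titin are anchored. The spring part of titin binds the ankyrin repeat proteins encoded by Ankrd1 and Ankrd2, and the Z-disc holds the LIM protein of Csrp3, all of which can also enter the nucleus. Filamin C, encoded by Flnc, links the Z-disc to the membrane and is unfolded by force. The Xin proteins of Xirp1 and Xirp2 and the small heat shock protein of Hspb7 bind filamin C or actin at sites of strain and repair. Fhl1 encodes a protein of LIM domains that binds titin, Igfn1 a protein with immunoglobulin and fibronectin domains found at the Z-disc, and Mustn1 a small nuclear protein of muscle and tendon. miR-1 is a muscle microRNA that represses mRNAs with sites for it.

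Total counts per library were between 12036360 and 23056525, with a median of 16940547.5, and the members had from 72 counts (Igfn1 in a sham mimic library) to 120086 counts (Fhl1 in another) per library. Expression is given in CPM, counts scaled by each library's total after TMM adjustment, so that libraries of unlike depth can be compared. Fast fibre markers summed to between 70400 and 186200 CPM in the 20 libraries, the most of any marker list, although Tnnc2, the fast troponin C gene, averaged only 0.82 to 1.49 CPM over the groups. Leukocyte markers were under 200 CPM in 4 libraries (replicates 4 and 5 of MOV control and replicate 1 of both sham groups, between 160 and 181 CPM) and between 309 and 760 CPM in the other 16. Fibroblast markers in these were at 4821 and 3352 CPM in MOV control and at 1157 and 1685 CPM in sham control and sham mimic, against 5491 to 12420 CPM in the others. Log2 fold changes of MOV control against sham control without these 4 libraries are therefore given beside the main ones for each of the 10 genes, and medians without them for the other comparisons. MOV control then keeps only replicates 1, 2 and 3, both sham groups keep replicates 2 to 5, and MOV mimic keeps all 5. In whole muscle, fewer cells of a type and less RNA per cell cannot be told apart.

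Per kilobase of exon, Fhl1 was the most abundant of the 10 genes in all 4 groups and Igfn1 the least. In sham control, Fhl1 averaged 1052 ± 193 CPM per kb (SD, n = 5), followed by Csrp3 (352 ± 139), Hspb7 (240.4 ± 74.6), Xirp2 (228 ± 14.5), Ankrd2 (157 ± 37.1), Mustn1 (143 ± 55.3), Flnc (109 ± 21.8), Xirp1 (47.6 ± 14.0) and Ankrd1 (37.2 ± 23.6), with Igfn1 at 2.03 ± 1.55 CPM per kb. Within a library the order was firm at both ends, since Fhl1 exceeded Csrp3, Flnc exceeded Xirp1, and Ankrd1 exceeded Igfn1 in 5 of 5 sham control libraries. Hspb7 and Xirp2 did not differ beyond their spread (Hspb7 higher in 3 of 5 libraries), nor did Ankrd2 and Mustn1 (3 of 5). In MOV control the order was Fhl1 (1202 ± 185 CPM per kb), Csrp3 (712 ± 303), Hspb7 (431 ± 114), Xirp2 (311 ± 175), Mustn1 (245 ± 93.2), Flnc (219 ± 156), Ankrd2 (184 ± 55.8), Ankrd1 (148 ± 91.1), Xirp1 (85.6 ± 64.1) and Igfn1 (6.44 ± 3.30). Ankrd1 was above Xirp1 there in 5 of 5 libraries. Lengths are of the union of exons in an older annotation (NCBIM37), which could differ from the one used for counting. The span of Xirp2 overlaps that of Gm13601, the span of Igfn1 that of Tmem9 and the span of Fhl1 that of Gm23258. Whether their exons overlap was not examined. As the strand setting of the counting was not given, reads in any exon that such a pair shares cannot be told apart.

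**Figure D1:**
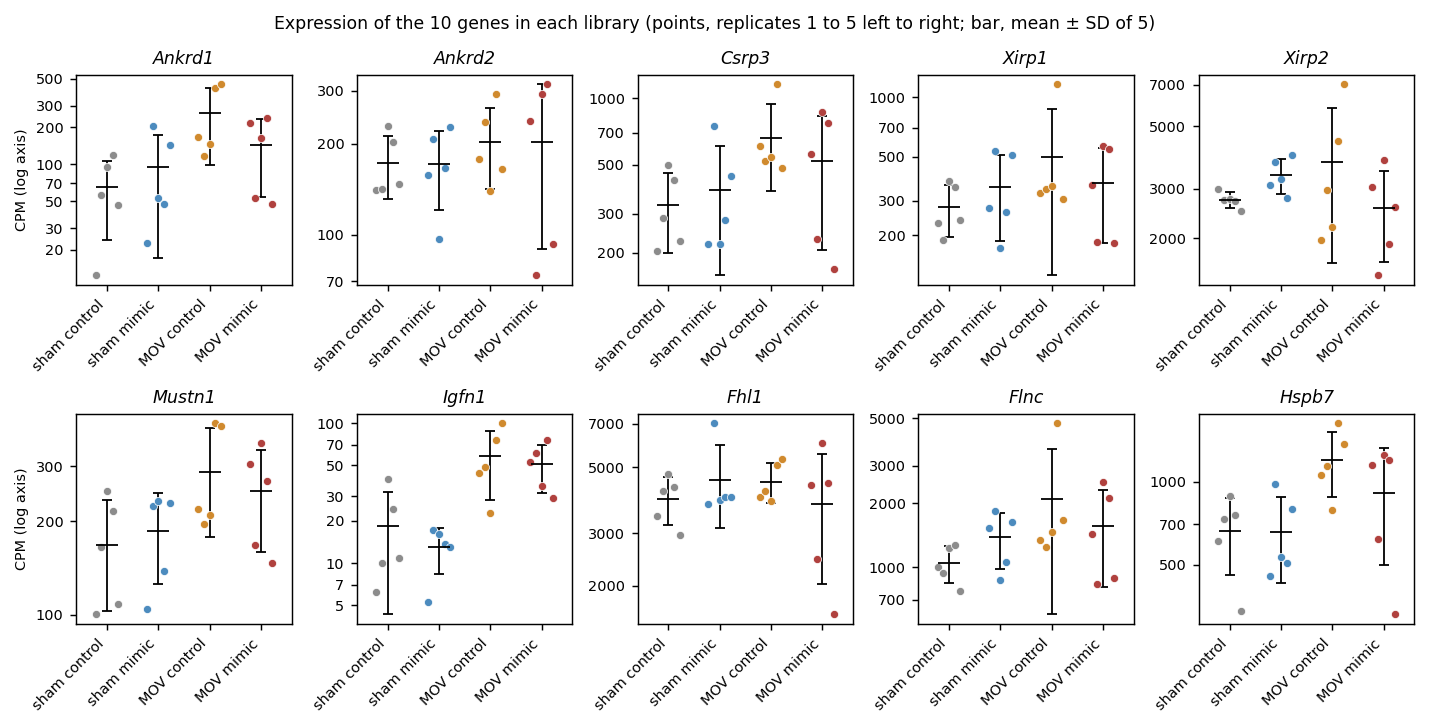
CPM of each of the 10 genes in the 20 libraries, on a log axis, by group, with replicates 1 to 5 from left to right and bars for the mean ± SD of 5 libraries. Igfn1 is the gene whose MOV mimic libraries all lie above its sham mimic libraries, while the groups of the other 9 genes overlap in all 4 comparisons.

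Ankrd1 (chr19:36111965-36119844 in GRCm38) had the largest difference between MOV control and sham control. It encodes the cardiac ankyrin repeat protein, which is scarce in resting adult limb muscle. Its levels in sham control replicates 1 to 5 were 12.4, 56.0, 95.5, 118 and 46.5 CPM. In MOV control they were 167, 117, 147.5, 418 and 451.5 CPM. All but 1 of the MOV control libraries (replicate 2) lay above the highest sham control library, and the lowest sham control library was replicate 1. The means were 260.3 ± 161 and 65.7 ± 41.6 CPM (SD, n = 5), a log2 fold change (log2FC) of 2.02 ± 0.53 (SE), or 4.05-fold. Without the 4 libraries low in leukocyte markers, which include the lowest sham and the 2 highest MOV values, log2FC was 0.91 ± 0.28, or 1.87-fold. In the mimic groups Ankrd1 was at 22.85, 205.5, 52.9, 47.1 and 144 CPM after sham and at 218, 52.9, 163, 241 and 47.5 CPM after MOV. These ranges overlap widely, and log2FC of MOV mimic against sham mimic was 0.66 ± 0.59, and it was 0.38 without MOV mimic replicate 4, 1.16 without sham mimic replicate 2 and 0.41 without sham mimic replicate 1.

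Ankrd2 (chr19:42035917-42045111), the related gene that resting slow fibres express most, differed little between groups. It was at 141, 142, 229, 203 and 148 CPM in sham control and 179, 237, 140.1, 292 and 165 CPM in MOV control, with a log2FC of 0.27 ± 0.21, or 0.08 ± 0.21 without the libraries low in leukocyte markers and 0.090 without MOV control replicate 4 alone. The mimic libraries had 158, 207.5, 96.9, 167 and 227 CPM after sham and 238, 73.5, 292.5, 316 and 93.3 CPM after MOV, with a log2FC of 0.28 ± 0.38, or 0.056 without MOV mimic replicate 4 and 0.50 without MOV mimic replicate 2. MOV mimic was the widest group, since its replicates 2 and 5 were the lowest and its replicates 4 and 3 the highest of all 20 libraries. The difference between the 2 ankyrin genes in MOV control against sham control was not tested.

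Csrp3 (chr7:48830398-48848051), the gene of muscle LIM protein, was at 202, 288, 498, 427 and 224.5 CPM in sham control. In MOV control it was at 608, 521, 542, 1162 and 483 CPM, so that only replicate 5 fell inside the sham control range. The means were 328 ± 129 and 663 ± 282.5 CPM, with a log2FC of 1.06 ± 0.30 (2.08-fold) and of 0.67 ± 0.23 without the libraries low in leukocyte markers. With mimic virus it was at 219, 751, 219, 282 and 446.5 CPM after sham and at 561, 229, 866, 774 and 169 CPM after MOV. Sham mimic replicate 2 was close to MOV mimic replicate 4, and MOV mimic replicate 5 was the lowest of all 20 libraries. The log2FC of MOV mimic against sham mimic was 0.48 ± 0.47, or 0.21 without MOV mimic replicate 3 and 0.87 without sham mimic replicate 2.

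The Xin genes are Xirp1 and Xirp2. Xirp1 (chr9:120013755-120023598) was at 230.2, 190.5, 378, 352 and 240.2 CPM in sham control and at 327.5, 345, 354.5, 1168 and 305 CPM in MOV control. Of the MOV control libraries, replicate 4 alone lay above the sham control range, and the means were 278 ± 81.9 and 500.0 ± 374 CPM. Its log2FC was 0.88 ± 0.37 with all libraries and 0.28 ± 0.21 without those low in leukocyte markers, and 0.29 without MOV control replicate 4 alone. In the mimic groups Xirp1 was at 274, 534.5, 172, 262 and 513 CPM after sham and at 362, 185, 567, 549 and 183 CPM after MOV, much the same span, and log2FC was 0.11 ± 0.39. It was -0.099 without MOV mimic replicate 3 and 0.31 without sham mimic replicate 2.

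Xirp2 (chr2:67446000-67526620) was the steadiest of the 10 genes in sham control and far less steady in MOV control. Its sham control libraries had 2984, 2738, 2750, 2716 and 2494 CPM, a coefficient of variation of 6.36%. The MOV control libraries had 1973, 2969, 2194, 4436 and 7044 CPM, a coefficient of variation of 56.2%. Replicates 1 and 3 were below and replicates 4 and 5 above the whole sham control range, and log2FC was 0.47 ± 0.30. Without the libraries low in leukocyte markers the sign turned, to -0.13 ± 0.15, and without MOV control replicate 5 alone it was 0.12. With mimic virus it was at 3078, 3718, 3233, 2774 and 3954 CPM after sham and at 3038, 1481, 3794, 1909 and 2586 CPM after MOV, and log2FC was -0.35 ± 0.24, or -0.54 without MOV mimic replicate 3 and -0.21 without MOV mimic replicate 2.

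Flnc (chr6:29433153-29461889) was at 1005, 939, 1228, 1276 and 774.5 CPM in sham control. MOV control libraries had 1337, 1238, 1463, 4742 and 1670 CPM, with replicate 4 at more than any other library of the study and only replicate 2 inside the sham control range. The means were 1045 ± 208 and 2090 ± 1491 CPM, and log2FC was 1.03 ± 0.35 (2.05-fold), or 0.39 ± 0.17 without the libraries low in leukocyte markers and 0.47 without MOV control replicate 4 alone. The mimic groups were at 1524, 1835, 873, 1054 and 1635 CPM after sham and 1430, 829, 2515, 2115 and 885 CPM after MOV, with a log2FC of 0.20 ± 0.32 and no separation of the groups. It was -0.039 without MOV mimic replicate 3 and 0.36 without MOV mimic replicate 2.

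Hspb7 (chr4:141420779-141425310), the gene of a small heat shock protein that binds filamin C, was at 611, 729.8, 890.1, 757 and 342 CPM in sham control and at 1056, 1140, 791, 1621 and 1364 CPM in MOV control. Only MOV control replicate 3 fell inside the sham range. The means were 666 ± 207 and 1194 ± 315 CPM, with a log2FC of 0.88 ± 0.25 (1.84-fold), or 0.59 ± 0.26 without the libraries low in leukocyte markers. In the mimic groups it was at 458, 984, 533, 508 and 794 CPM after sham and at 1151, 620.3, 1244, 1191 and 332 CPM after MOV. MOV mimic replicate 5 was the lowest of all 20 libraries, whereas replicates 1, 3 and 4 were above all sham mimic libraries. The log2FC was 0.51 ± 0.34.

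Fhl1 (chrX:56731209-56793346) had the smallest log2FC of the 10 genes in MOV control against sham control. It was at 3424, 4164, 4740, 4299 and 2953 CPM in sham control and at 3966, 4143, 3835, 5094 and 5327 CPM in MOV control, a log2FC of 0.23 ± 0.18, or 0.02 ± 0.16 without the libraries low in leukocyte markers and 0.13 without sham control replicate 5. In the mimic groups it was at 3770, 7019, 3890, 3977 and 3956 CPM after sham and at 4348, 2458, 6030, 4408 and 1600 CPM after MOV. Sham mimic replicate 2 was the highest and MOV mimic replicate 5 the lowest of all 20 libraries, so the surgery groups did not separate, and log2FC of MOV mimic against sham mimic was -0.22 ± 0.33, or -0.46 without MOV mimic replicate 3 and -0.016 without sham mimic replicate 2.

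Mustn1 (chr14:30879257-30881610) was at 100.4, 165.5, 249, 215.5 and 108.5 CPM in sham control and at 219, 196, 209.7, 411 and 405 CPM in MOV control. Replicates 4 and 5 of MOV control were clear of the sham control range and the other 3 were inside it. The log2FC was 0.81 ± 0.29 (1.76-fold) and 0.21 ± 0.23 without the libraries low in leukocyte markers. The mimic groups were at 105, 224, 232, 139 and 229 CPM after sham and 305, 168, 357, 269 and 146 CPM after MOV, a log2FC of 0.47 ± 0.28, or 0.30 without MOV mimic replicate 3.

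Igfn1 (chr1:135953205-136040925) was the scarcest member and the one with the largest log2FC of MOV mimic against sham mimic. Its sham control libraries had 6.18, 9.95, 40.0, 24.5 and 10.8 CPM. Its MOV control libraries had 44.1, 48.2, 22.8, 75.45 and 99.4 CPM, with 4 of 5 above every sham control library and replicate 3 below the 2 highest of them. The log2FC was 1.69 ± 0.49 (3.22-fold), or 0.88 ± 0.43 without the libraries low in leukocyte markers. With mimic virus the sham libraries had 5.29, 17.4, 16.0, 13.7 and 13.0 CPM and the MOV libraries 52.8, 60.85, 35.6, 76.2 and 29.05 CPM. The lowest MOV mimic library was above the highest sham mimic library, and log2FC was 2.00 ± 0.32 (4.01-fold), or 1.81 ± 0.27 without sham mimic replicate 1, the one library low in leukocyte markers in these groups.

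Across the 10 genes, log2FC of MOV control against sham control was above 0 for all 10, from 0.23 for Fhl1 to 2.02 for Ankrd1, with a median of 0.88 against 0.04 over the 14974 genes tested. Without the 4 libraries low in leukocyte markers it was above 0 for 9 of 10 with a median of 0.33, against 0.01 over all genes, and without MOV control replicate 4 alone the median was 0.555. With library totals in place of TMM the median over all genes moved to 0.20 and that of the members to 0.99. No member's MOV control libraries all lay above its sham control libraries (0 of 10), whereas 4.88% of the genes tested had groups that did not overlap. In MOV mimic against sham mimic, log2FC was above 0 for 8 members and below 0 for Xirp2 and Fhl1, with a median of 0.37 against 0.02 over all 14918 genes. That median was 0.16 without MOV mimic replicate 3 (6 above 0 and 4 below), 0.17 without MOV mimic replicate 4 and 0.23 without sham mimic replicate 3 (7 and 3 in both), and 0.29 without the library low in leukocyte markers. There, 1 of 10 members (Igfn1) had groups that did not overlap, against 2.84% of the genes tested. edgeR called 0 members at an adjusted p under 0.05 in MOV control against sham control and 0 in MOV mimic against sham mimic, where it called 0.00668% (1 gene) and 0.0% of all genes. In those comparisons 7 and 1 members had an unadjusted p under 0.05, as did 18.2% and 13.4% of all genes. DESeq2 called 4 members higher in MOV control (Ankrd1, Csrp3, Flnc and Hspb7), against 2.62% of the genes tested, and 1 (Igfn1) higher in MOV mimic, against 0.845%. Since the members were picked with this contrast in view, nothing is read from these counts.

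**Figure D2:**
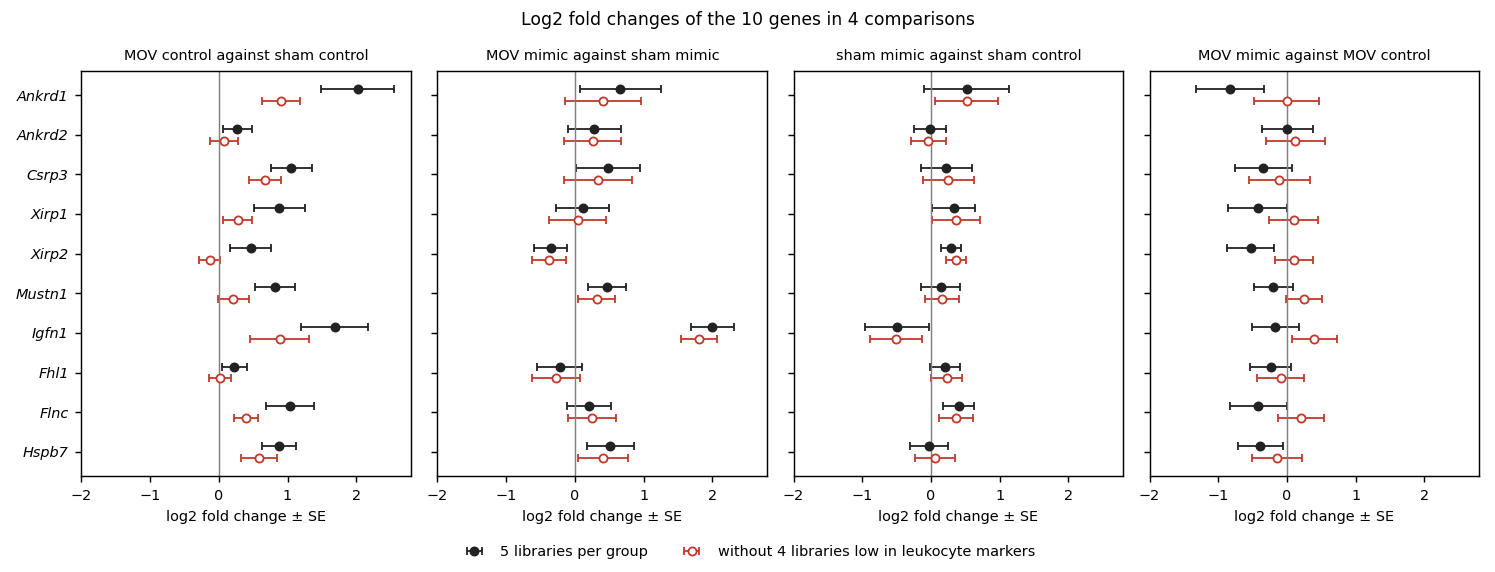
Log2 fold changes of the 10 genes ± SE in 4 comparisons, from all libraries (filled) and without the 4 libraries low in leukocyte markers (open). In MOV control against sham control the filled points run from 0.23 to 2.02, and all 10 open points lie to the left of them, from -0.13 to 0.91.

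The mimic against control comparisons ask whether the mimic virus altered the genes after sham surgery or after MOV. The mimic's own level was not measured by these counts. By qPCR, the paper reports that the mimic virus did not raise miR-1 after sham surgery and lessened its fall after MOV. After sham surgery edgeR called 0 of 10 members, as it called 0.0% of the 14746 genes tested, with 0 members and 254 genes at an unadjusted p under 0.05. DESeq2 also called 0 members. The log2FC of sham mimic against sham control was above 0 for 7 members and below 0 for 3, with a median of 0.21 against 0.0011 over all genes, and ran from -0.49 ± 0.46 for Igfn1 to 0.52 ± 0.62 for Ankrd1. Without sham mimic replicate 2 the median was 0.011, with 5 above and 5 below 0, and Ankrd1 was at 0.026. The median was 0.13 without sham control replicate 1, 0.11 without sham control replicate 5, 0.32 without sham control replicate 3 (all 10 above 0) and 0.24 without the libraries low in leukocyte markers (8 above 0). Xirp2 was the member with the smallest p, with 4 of 5 sham mimic libraries above all sham control libraries, means of 3351 ± 479.7 and 2736 ± 174 CPM and a log2FC of 0.29 ± 0.14. Its p was 0.0159 in a two-sided exact permutation test, the smallest of 20 such tests (10 genes in both surgeries), while the adjusted p over all genes from edgeR was 1.00. These tests take the muscles as independent, although left and right muscles share a mouse. The sham control libraries, whose Xirp2 levels lay so close together, belong to the contrast known when the members were chosen, so this p is not independent of that choice. For Flnc, 3 of 5 sham mimic libraries were above all sham control libraries, with a log2FC of 0.41 ± 0.23 and an exact permutation p of 0.159. No member had groups without overlap, against 0.359% of all genes.

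After MOV, edgeR called 0 of 10 members for mimic against control, where 0.0% of 15220 genes were called, with 0 members and 641 genes at an unadjusted p under 0.05. DESeq2 called 0 members as well. The log2FC of MOV mimic against MOV control was below 0 for 9 of 10 members, with a median of -0.37 against -0.01 over all genes. It was lowest for Ankrd1, at -0.83 ± 0.49 (means 144 ± 90.6 and 260.3 ± 161 CPM, exact permutation p = 0.183, edgeR adjusted p = 0.999), followed by Xirp2 at -0.53 ± 0.34 (p = 0.310 by the same exact permutation test), Xirp1 at -0.43 ± 0.43 and Flnc at -0.42 ± 0.41. Ankrd2 was at 0.01 ± 0.37, with a mean of 203 CPM in both groups. For 8 members MOV mimic replicates 2 and 5 lay below every MOV control library, for Xirp2 replicates 2 and 4 did, and for Igfn1 none did. The other MOV mimic libraries were inside the MOV control range except for Ankrd2 (replicates 3 and 4 above it) and Fhl1 (replicate 3 above it). The groups overlapped for all 10 members, against 0.756% of genes without overlap. The count of 9 rested on few libraries and on the fit, as voom gave a median of -0.14 with 8 members below 0 and Xirp2 at -0.054. Xirp2 was at -0.18 without MOV control replicate 5, and Xirp1 and Flnc were at 0.15 and 0.13 without MOV control replicate 4. Without MOV control replicate 4, 7 members were below 0 with a median of -0.06, and without both MOV control libraries low in leukocyte markers 4 were below 0 and 6 above, with a median of 0.098. Ankrd1 was then at -0.0053 ± 0.47, 0.996-fold. Xirp2 was at 0.10 ± 0.28. The members' median was -0.15 without MOV mimic replicate 5 and -0.57 without MOV mimic replicate 3. The 8 leukocyte markers had a median log2FC of 0.50 in this comparison, all 8 above 0 (0.12 and 6 of 8 without the libraries low in them), and their part in the members' values was not tested. The MOV control libraries also belong to the contrast known when the members were chosen, so these values are not independent of that choice.

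The difference between these mimic effects was fitted as an interaction over all 20 libraries. It contains the contrast of MOV control and sham control that was known when the members were chosen, so its values for them are a description. Its log2 value was below 0 for 8 of 10 members, with a median of -0.51 against -0.01 over 16166 genes, and edgeR called 0 members and 0.0% of genes, with 0 members and 426 genes (2.63%) at an unadjusted p under 0.05. DESeq2 called 0 members. The lowest was Ankrd1 at -1.35 ± 0.85, and Flnc and Xirp2 were at -0.83 ± 0.51 and -0.82 ± 0.40. Igfn1 was at 0.32 ± 0.61 and Ankrd2 at 0.02 ± 0.47. Without the 4 libraries low in leukocyte markers the median was -0.21, with 7 members below 0, Ankrd1 was at -0.50 ± 0.73, Flnc at -0.15 ± 0.45, Xirp2 at -0.25 ± 0.33 and Igfn1 at 0.92 ± 0.55. Flnc was at -0.28 without MOV control replicate 4, Xirp2 at -0.46 without MOV control replicate 5, Ankrd1 at -0.85 without sham mimic replicate 2 and Igfn1 at -0.20 without sham control replicate 3. The leukocyte markers had a median of 0.77, all 8 above 0, and of 0.24, with 5 of 8 above 0, without the 4 libraries low in them. The members' median was -0.25 without sham mimic replicate 2, -0.26 without MOV control replicate 4 and -0.30 without MOV mimic replicate 5, and the lowest over the libraries left out was -0.76. All had an adjusted p of 1.00 from edgeR.

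Much of the variation of the 10 genes was between libraries of the same group. The SD of log2 CPM within a group had a median over the members of 0.48 in sham control and 0.65 in MOV control, and of 0.50 in sham mimic and 0.79 in MOV mimic, against 0.34, 0.39, 0.33 and 0.45 over 16166 genes. Ankrd1 varied most in each group, with an SD from 0.90 to 1.28, and its highest sham control library had 9.48 times the CPM of its lowest. That lowest library was replicate 1, low in leukocyte markers, at 12.4 CPM, and the next lowest was replicate 5 at 46.5 CPM. Xirp2 varied least in sham control (0.09), sham mimic (0.21) and MOV mimic (0.54), and Fhl1 in MOV control (0.22). In MOV mimic all 10 members had an SD above the median of all genes.

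The genes varied together. The mean z-score of the 10 genes (log2 CPM relative to each gene's own mean and SD over the 20 libraries) was highest in MOV control replicate 4 (1.68), MOV mimic replicate 3 (1.05) and MOV control replicate 5 (1.01). It was lowest in MOV mimic replicate 5 (-1.21), sham control replicate 5 (-1.01), sham control replicate 1 (-0.99) and MOV mimic replicate 2 (-0.99). MOV control replicate 4 was the highest of its group for 6 members and replicate 5 for the other 4. MOV mimic replicate 3 was the highest for 7 members, and MOV mimic replicate 5 the lowest for 7 and replicate 2 for the other 3. In sham control, replicate 3 was the highest for 7 members, and in sham mimic replicate 2 was the highest for 7. MOV mimic thus held 3 high libraries, with mean z from 0.55 to 1.05, and 2 low ones.

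**Figure D3:**
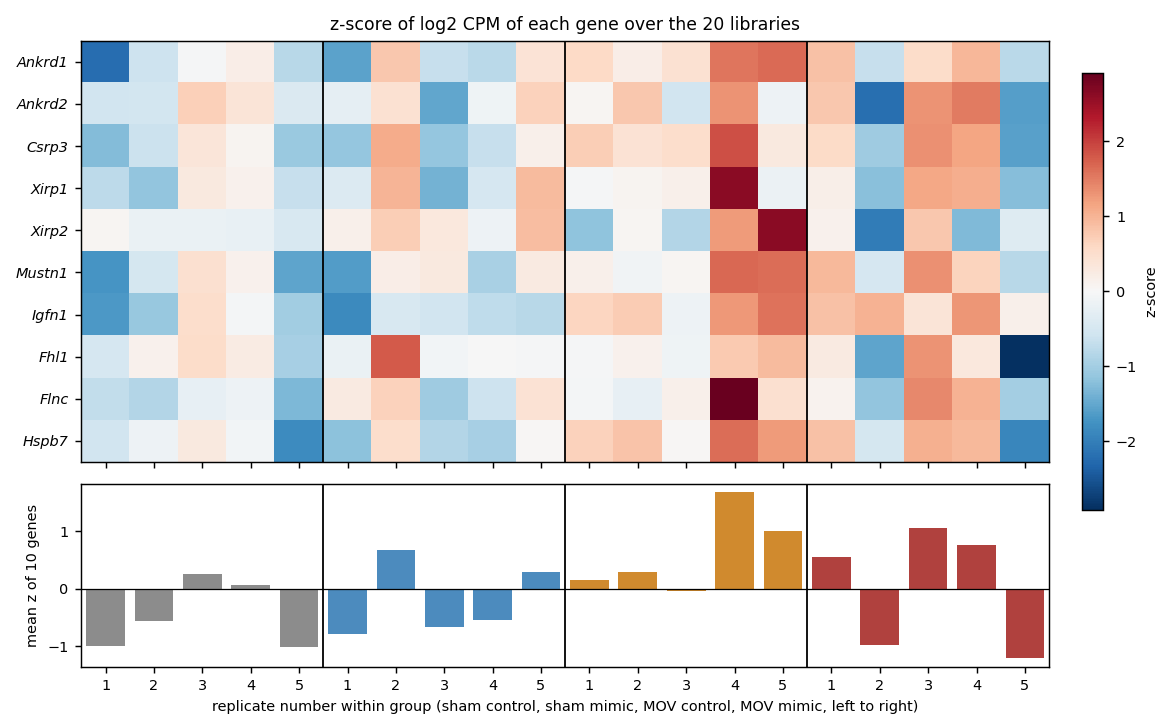
z-scores of log2 CPM of the 10 genes (rows) in the 20 libraries (columns), with red for high and blue for low, and the mean of the 10 z-scores below. Many columns are mostly of 1 colour, and others are mixed. MOV mimic replicates 2 and 5 are blue except for Igfn1, and replicates 1, 3 and 4 are red except for Xirp2 in replicate 4. Mean z was -0.99 and -1.21 in the former, against 0.55, 1.05 and 0.76 in the latter.

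Over the 20 libraries, all 45 pairs of members had a Pearson r of log2 CPM above 0, with a median of 0.69 and a range from 0.05 (Xirp2 and Igfn1) to 0.94 (Xirp1 and Flnc). After the mean of each group was taken off, the median was 0.70 and all 45 pairs were still above 0, from 0.24 to 0.93. The closest pairs were then Xirp1 with Flnc (0.93), Fhl1 with Hspb7 (0.91) and Csrp3 with Xirp1 (0.90). Xirp2 and Igfn1 were the least like the rest, with median r of 0.42 and 0.43 to the other 9. These values are a description over libraries that share depth scaling and cell makeup, and libraries of the left and right muscle of a mouse are not independent.

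Among 16156 other genes, those closest to the mean z-score of the 10 over the 20 libraries were Myom3 (r = 0.96), Hspb1 (0.94), Myl12a (0.94), Lmcd1 (0.94), Ttc9 (0.94), Trp63 (0.93), Synpo2l (0.93) and Usp28 (0.93). Myom3 encodes myomesin 3 of the sarcomere's M-band, Hspb1 a small heat shock protein, Myl12a a myosin regulatory light chain and Synpo2l a Z-disc protein. Myom3 averaged 257 ± 97.0 CPM in sham control and 495 ± 189 CPM in MOV control, against 298 ± 144 CPM in sham mimic and 376 ± 215 CPM in MOV mimic. After the group means were taken off, the closest were Myom3 (0.94), Cpne2 (0.94), Myl12a (0.94), Adprhl1 (0.93) and Ttc9 (0.93).

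Markers of other cell types and of regenerating fibres also differed between these libraries. Regenerating fibre markers (Myh3, Myh8, Myog, Myod1, Mymk, Mymx, Pax7, Ncam1 and Actc1, 9 genes, none at 0 in a whole group) summed to 182 to 1314 CPM in sham control and 722 to 2265 CPM in MOV control, and to 230 to 2686 CPM in sham mimic and 140 to 2013 CPM in MOV mimic. The library with the lowest sum, 140 CPM, was MOV mimic replicate 5, which also had the lowest mean z of the members. Sham mimic replicate 2, with the highest sum (2686 CPM), had the highest mean z of the sham libraries (0.68). Other libraries went against this: MOV control replicate 5 had the lowest sum of its group, 722 CPM, and a mean z of 1.01, sham mimic replicate 5 had 378 CPM and 0.29, and MOV mimic replicate 2 had 931 CPM and -0.99. Of the 9 regenerating fibre markers, all 9 had a log2FC above 0 in MOV control against sham control, with a median of 1.18, and 2 (Pax7 and Ncam1) had groups that did not overlap. The median was 0.71 in MOV mimic against sham mimic (9 above 0) and -0.43 in MOV mimic against MOV control (8 below 0). edgeR called 0 of the 9 in each of the 5 comparisons. Without the libraries low in leukocyte markers the medians were 0.98 (9 above 0), 0.53 (8 above 0) and -0.26 (8 below 0). Leukocyte markers (8 genes) were at 160 and 181 CPM in MOV control replicates 4 and 5, which had mean z of 1.68 and 1.01, and at 170 and 173 CPM in sham control and sham mimic replicate 1, which had -0.99 and -0.78.

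Slow fibre markers (7 genes) ranged from 375 to 1022 CPM in sham control libraries, 384 to 919 CPM with mimic virus after sham, 451 to 1125 CPM in MOV control libraries and 369 to 2165 CPM with mimic virus after MOV. Their median log2FC was 0.92 in MOV control against sham control (5 of 7 above 0), 1.495 in MOV mimic against sham mimic (6 of 7) and 0.50 in MOV mimic against MOV control (7 of 7), and edgeR called 0 of them. Without the libraries low in leukocyte markers these medians were 0.93, 1.3 and 0.27. Fibroblast markers (6 genes) ranged from 1157 to 11170, 1685 to 10430, 3352 to 12420 and 5544 to 10850 CPM in the same order, and tendon markers (6 genes) from 280 to 978, 356 to 1149, 343 to 1095 and 659 to 1147 CPM. Smooth muscle markers (5 genes) were at 4102 to 6690, 3788 to 6578, 5317 to 9024 and 4683 to 7618 CPM. Endothelial markers (4 genes) were at 228 to 278 and 255 to 345 CPM after sham and 122 to 242 and 180 to 199 CPM after MOV. Of the endothelial genes, Kdr, a VEGF receptor, was lower in all MOV libraries than in all sham libraries with control virus (log2FC -0.80 ± 0.20), and Kdr (-0.68 ± 0.18), Cdh5 (-0.66 ± 0.15) and Tek (-0.82 ± 0.13) were so with mimic virus. The fast myosin gene Myh4 (-1.59 ± 0.30) and the smooth muscle myosin gene Myh11 (-1.17 ± 0.29) were likewise without overlap with control virus, and edgeR called none of these 5 genes. Without the libraries low in leukocyte markers, log2FC with control virus was -0.46 for Kdr, -1.27 for Myh4 and -0.66 for Myh11. Adipocyte markers (4 genes) were at most 20.2 CPM. Cardiac markers (4 genes) were at most 5.96 CPM, with Myl7 at 0 in all groups and Nppa and Nppb at 0 in sham mimic. What part these cells have in the members' values was not tested.

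**Figure D4:**
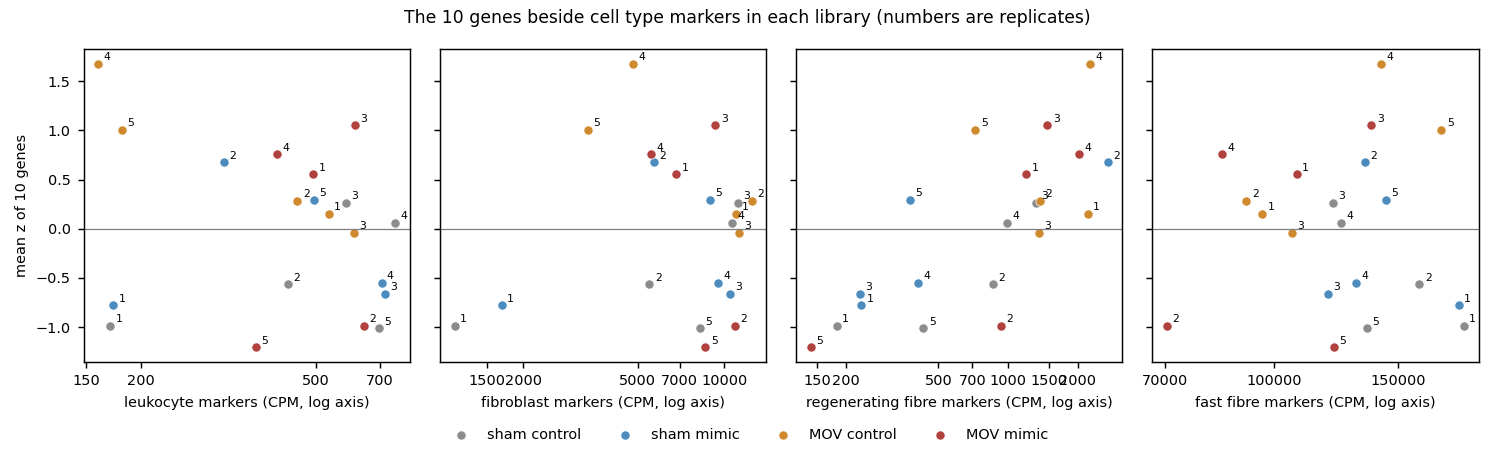
Mean z-score of the 10 genes against the summed CPM of leukocyte, fibroblast, regenerating fibre and fast fibre markers in each library, on log axes, coloured by group and numbered by replicate. The 4 libraries with leukocyte markers under 200 CPM hold 2 of the highest mean z values, 1.68 and 1.01, and 2 of the lower ones, -0.99 and -0.78.

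Promoters are shown for 5 members, since the genes varied together: Ankrd1, Mustn1, Flnc and Hspb7 because they hold a CATTCC sequence, the core of the MCAT box bound by TEAD factors, and Igfn1, which lacks it, because its MOV mimic and sham mimic libraries did not overlap. Windows run from 250 bases before to 50 after a start site in RefSeq (GRCm38.p6), 5′ to 3′ on the gene's strand, and capitals mark CATTCC or its complement GGAATG, or the E-box CAGCTG in Igfn1.
Ankrd1, chr19:36119795-36120094, minus strand: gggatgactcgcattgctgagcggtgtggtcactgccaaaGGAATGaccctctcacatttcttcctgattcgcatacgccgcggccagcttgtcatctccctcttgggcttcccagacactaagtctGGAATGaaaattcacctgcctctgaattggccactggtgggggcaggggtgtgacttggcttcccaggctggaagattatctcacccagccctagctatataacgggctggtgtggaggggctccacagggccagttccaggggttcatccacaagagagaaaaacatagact
Mustn1, chr14:30879007-30879306, plus strand: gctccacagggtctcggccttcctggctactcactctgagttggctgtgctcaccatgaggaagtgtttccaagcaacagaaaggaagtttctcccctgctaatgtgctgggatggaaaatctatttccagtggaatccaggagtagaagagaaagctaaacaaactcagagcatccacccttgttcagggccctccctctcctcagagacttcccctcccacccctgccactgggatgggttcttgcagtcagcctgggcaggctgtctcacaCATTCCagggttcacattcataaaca
Flnc, chr6:29432903-29433202, plus strand: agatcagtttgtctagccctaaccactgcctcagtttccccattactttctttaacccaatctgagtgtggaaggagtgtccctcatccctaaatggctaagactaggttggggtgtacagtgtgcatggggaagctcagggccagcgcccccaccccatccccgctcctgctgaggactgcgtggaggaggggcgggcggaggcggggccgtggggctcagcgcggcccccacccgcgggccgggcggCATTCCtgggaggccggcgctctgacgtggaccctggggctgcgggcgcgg
Hspb7, chr4:141420529-141420828, plus strand: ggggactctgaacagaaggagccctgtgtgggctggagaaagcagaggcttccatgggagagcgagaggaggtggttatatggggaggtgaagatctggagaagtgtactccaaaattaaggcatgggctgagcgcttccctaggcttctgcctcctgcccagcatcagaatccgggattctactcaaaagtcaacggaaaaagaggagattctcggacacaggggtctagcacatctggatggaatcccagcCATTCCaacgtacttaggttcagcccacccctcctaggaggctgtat
Igfn1, chr1:136006293-136006592, minus strand: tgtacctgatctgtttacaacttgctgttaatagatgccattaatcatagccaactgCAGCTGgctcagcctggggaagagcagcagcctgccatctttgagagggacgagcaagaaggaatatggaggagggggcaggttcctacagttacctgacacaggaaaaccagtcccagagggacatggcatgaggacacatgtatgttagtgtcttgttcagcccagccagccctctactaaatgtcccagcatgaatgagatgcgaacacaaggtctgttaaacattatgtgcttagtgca
Of the 10 members, 9 had 12 windows in the table, and Xirp1 had none. CATTCC was found, on either strand, in the windows of 4 of 9 members and of 16.6% of 27025 genes. Ankrd1 has it at positions -210 to -205 and -123 to -118 against the start site, Mustn1 at 25 to 30, Flnc at -1 to 5 and Hspb7 at 4 to 9, and the second Flnc window, which overlaps the first, holds the same letters. The CArG box, bound by SRF, was found in 1 of 9 members (Fhl1, -102 to -93) and in 1.81% of genes, and the MEF2 box in 1 (Xirp2, -74 to -65) and 3.7%. The E-box CAGCTG was found in 1 (Igfn1, -193 to -188) and 18.3% of genes, and TATAAA, searched on the gene's strand only, in 1 (Ankrd2, -29 to -24) and 9.77%. No match overlapped one of another motif, and a match of letters is not a bound site.

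Related genes were read from lists chosen with earlier results of these data known. Of 13 close relatives (ankyrin repeat, LIM, filamin and small heat shock genes), edgeR called 0 in MOV control against sham control, 9 had a log2FC above 0, and the median was 0.48. Without the 4 libraries low in leukocyte markers the median was 0.24, with 9 above 0. The largest were Fhl2, of 8.32 CPM in sham control and 17.2 in MOV control (log2FC 1.09 ± 0.47), Hspb1 (320.0 and 652 CPM, 1.06 ± 0.26) and Hspb8 (528 and 1050.0 CPM, 1.02 ± 0.25). MOV control libraries lay above all sham control libraries for Hspb1 and Hspb8 and below them for Fhl3 (-0.67 ± 0.19). Without the libraries low in leukocyte markers, log2FC was 0.95 for Fhl2, 0.45 for Hspb1, 0.41 for Hspb8 and -0.40 for Fhl3. In MOV mimic against sham mimic 0 were called, 8 were above 0, and the median was 0.26. Without the library low in leukocyte markers in these groups the median was 0.16, with 9 above 0. Fhl1 and Fhl3, both of LIM domains, so had values of opposite sign with control virus, and the difference between them was not tested.

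For the 38 Z-disc and titin partners the median log2FC of MOV control against sham control was -0.07, with 17 above 0 and 21 below, and in MOV mimic against sham mimic it was -0.17, with 13 above 0 and 25 below. In MOV mimic against MOV control 32 of 38 were below 0, and in the interaction 31 of 38. Without the 4 libraries low in leukocyte markers the interaction had 15 below 0 and 23 above, with a median of 0.042. No difference between these genes and the members was tested. Obsl1, encoding an obscurin-like protein, was above and Tcap, encoding the titin cap, below the sham control range in all MOV control libraries, with log2FC of 0.91 ± 0.22 and -0.91 ± 0.22 (means 160.0 and 87.8 CPM, and 1464 and 2804 CPM). For 20 integrin and costamere genes the median was 0.22. They include Ilk, which averaged only 0.89 to 3.00 CPM over the groups. Itga7, the muscle laminin receptor subunit, had groups that did not overlap (0.71 ± 0.18). With mimic virus Sgca, encoding alpha-sarcoglycan, was lower in all MOV libraries than in all sham libraries (125.5 and 188.5 CPM, log2FC -0.56 ± 0.18). The 8 filamin turnover genes had a median of 0.34, the 9 tested of 10 SRF and MRTF pathway genes 0.32, and the 12 YAP and TEAD pathway genes 0.17, with Tead3 at 0.97 ± 0.23 and without overlap. In MOV mimic against MOV control the median was -0.13 for Z-disc and titin partners, -0.17 for integrin and costamere, -0.16 for filamin turnover, -0.25 for SRF and MRTF (all 9 below 0) and -0.10 for YAP and TEAD, where Tead3, at 15.95 ± 4.77 and 27.6 ± 8.58 CPM (SD, n = 5), was the single list gene whose groups did not overlap. edgeR called 0 genes of these lists in each of the 5 comparisons. Without the 4 libraries low in leukocyte markers, the median of MOV control against sham control was -0.16 for Z-disc and titin partners, 0.23 for integrin and costamere, 0.19 for filamin turnover, 0.22 for SRF and MRTF and 0.12 for YAP and TEAD genes. Tcap was then at -0.90 ± 0.13 with an edgeR adjusted p of 0.0179, the 1 gene of these lists called, and Obsl1 was at 0.72, Itga7 at 0.44 and Tead3 at 0.74. Without those libraries in MOV mimic against MOV control, 14 of the 38 Z-disc and titin partners were below 0 and 24 above, with a median of 0.034, and Tead3 was at -0.64. The medians there were -0.062 for integrin and costamere, 0.039 for filamin turnover, -0.076 for SRF and MRTF (6 of 9 below 0) and -0.17 for YAP and TEAD genes. Obsl1, Tcap, Itga7, Sgca, Tead3, Fhl3 and the endothelial, myosin and regenerating fibre genes above are named because their groups did not overlap, and so, like Ilk and Tnnc2 for their low levels, after their values were seen.

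**Figure D5:**
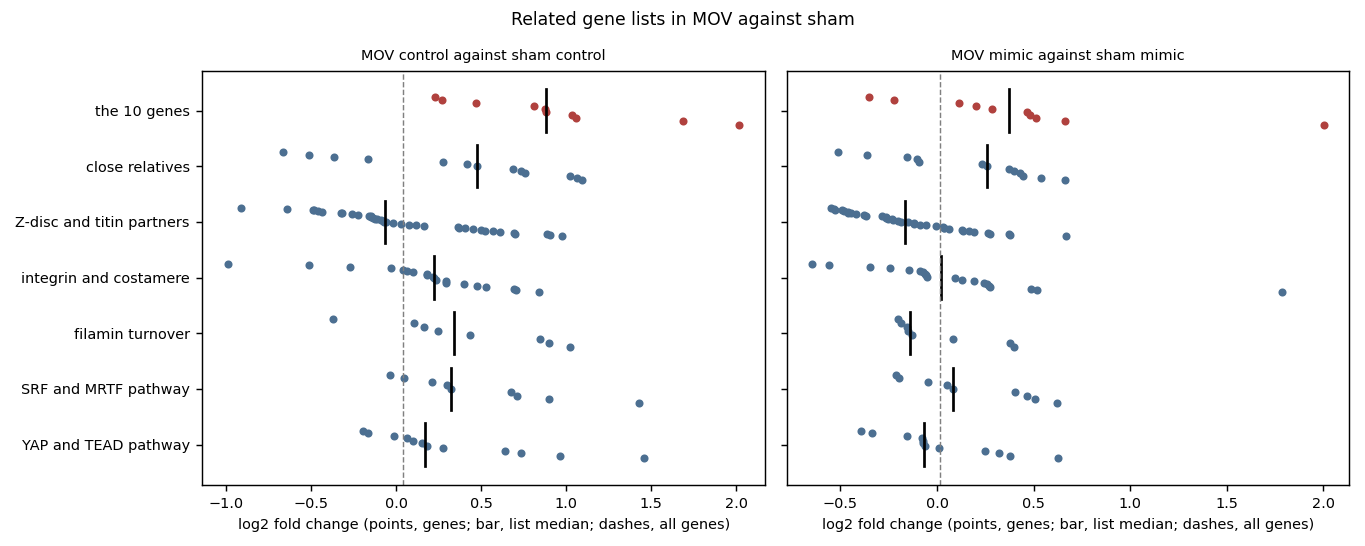
Log2 fold changes of the 10 genes and of 6 related lists in MOV control against sham control and in MOV mimic against sham mimic, with a point for each gene, a bar for the list median and dashes for the median of all genes. The bar of the 10 genes is at 0.88 and 0.37, against -0.07 and -0.17 for Z-disc and titin partners. All libraries are used, and without the 4 low in leukocyte markers these medians were 0.33 and 0.29 against -0.16 and -0.057.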

How the data were processed

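RNA was taken from plantaris muscles of 4 groups with 5 muscles each, and libraries were made with the NEBNext Ultra II kit. The submitters' processing notes and the methods give FastQC 0.11.9, cutadapt 4.4, Trim Galore 0.6.10, HISAT2 2.0.5 to GRCm38 and featureCounts 1.5.0-p3. The annotation release, strand setting and treatment of reads with several alignments are not given in the sources used here. The authors deposited raw counts per Ensembl gene, without normalization, in separate tables by virus (control and mimic), which were joined by gene.

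The members and all gene lists were chosen with earlier results of these data known. Genes were matched by symbol, with all 168 list genes found. The main test was edgeR 4.0.16 (quasi-likelihood, TMM, filterByExpr, two-sided, Benjamini-Hochberg over all genes tested, threshold 0.05) on the 10 libraries compared, or on all 20 for the interaction. The standard error of a log2FC was derived from it and its F statistic. CPM used TMM over 20 libraries, with a prior count of 2 for log2. Single values of mimic against control were compared with two-sided exact permutation tests over 252 splits, whose smallest p is 0.00794. The alternatives used DESeq2 1.42.0, voom with quality weights (limma 3.58.1), DESeq2's size factors, library totals, no filter, at least 10 counts in total, a replicate block, all 20 libraries, and each library left out. A fit without the 4 libraries with leukocyte markers under 200 CPM was added after the values were seen. Replicates of a group are from different mice, and p-values set a difference between groups against the spread between libraries. In the main and exact permutation tests of mimic against control, they take no account of left and right muscles sharing a mouse. The libraries of a group differed by 13.9 to 168 chi-square per gene between pairs, so none was a copy. Fits were tested on simulated data.

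The genes named are the 10 members, the 3 close relatives with the largest log2FC of MOV control against sham control, genes of other lists with an adjusted p under 0.05 and no overlap (none), the 8 genes closest to the members over 20 libraries and the 5 closest after group means were taken off, and genes whose groups did not overlap where 5 or fewer did. Promoter sequences are from RefSeq. A mature sequence of miR-1 was not used here. Scripts ran in Python 3.11.15 with matplotlib 3.10.9, scipy 1.17.1, pandas 2.3.3 and numpy 2.4.6, and in R 4.3.3.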

Additional observations from a re-analysis of the deposited data

Results flagged for a closer look

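Among 40 sets of 5 libraries (10 genes in 4 groups), 5 had a library far from the other 4 by Dixon's ratio of its gap to the range of log2 CPM, with a critical value of 0.71. Chance alone gives about 1 in 20 such sets. As the genes varied together, the 40 sets are not independent, and no excess is read from the count. MOV control replicate 4 was far above its group for Csrp3 (1162 CPM, ratio 0.74), Xirp1 (1168 CPM, 0.89) and Flnc (4742 CPM, 0.78). Sham mimic replicate 2 was far above its group for Fhl1 (7019 CPM, 0.91), and sham mimic replicate 1 was far below its group for Igfn1 (5.29 CPM, 0.76). MOV control replicate 4 and sham mimic replicate 1 are among the 4 libraries with leukocyte markers under 200 CPM.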

How the results depend on the processing

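Of 590 values of single members under other settings, 541 kept their direction and side of the threshold, 18 newly passed it and 31 changed sign. The cause of these changes was not tested unless stated. In MOV control against sham control, where edgeR called 1 gene (Nos1), DESeq2 called 913, voom 294, library totals 0, no filter 388, at least 10 counts 163, the fit of all 20 libraries 36 and the fit without the 4 libraries low in leukocyte markers 33. Leaving out a library gave 0 to 426 (426 without sham control replicate 3, 318 without MOV control replicate 5, 6 without MOV control replicate 3). Members called there rose from 0 to 4 with DESeq2 and 2 with no filter (Ankrd1 and Igfn1), and were 0 to 2 when a library was left out (Csrp3 and Igfn1 without sham control replicate 3). For MOV mimic against sham mimic 0 genes became 221 with DESeq2, 2 with voom, 1 with no filter, 3 in the fit of all 20 libraries and 0 to 101 when a library was left out (101 without MOV mimic replicate 5). The 1 member called, with DESeq2, voom, no filter or without MOV mimic replicate 5 (0 to 1 over the libraries left out), was Igfn1. In MOV mimic against MOV control DESeq2 called 3 and the fit of all 20 libraries 1, and in the interaction DESeq2 called 1, against 0 in the main test. Sham mimic against sham control had 0 calls in every setting.

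Replicate numbers were not taken as pairs, since the labels do not tie them to a mouse and the correlations of deviations between control and mimic libraries of a number ran from -0.00014 to 0.83 after sham and from 0.072 to 0.46 after MOV, not all above 0.1. Among control libraries of the same surgery, mimic libraries were closest to that of their own number for 5 of 5 numbers after MOV and 2 of 5 after sham. The reverse, each control library against all mimic libraries, was not computed. Sham and MOV libraries come from different mice, so a block on the number has no basis in the design for the comparisons between surgeries. With the replicate block, edgeR called 1 gene in MOV control against sham control, 0 in each other comparison and 0 members, while DESeq2 called 0 in sham mimic against sham control, 722 in MOV control against sham control (5 members), 116 in MOV mimic against sham mimic (1 member, Igfn1), 127 in MOV mimic against MOV control and 5 in the interaction. Ankrd2 turned with the block to -0.17 in MOV mimic against MOV control (edgeR and DESeq2) and to -0.14 and -0.13 in the interaction.

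Other log2 values changed sign as follows. With voom, Ankrd2 was at -0.0073, Mustn1 at 0.095 and Igfn1 at 0.20 in MOV mimic against MOV control, and Ankrd2 at -0.0084 in the interaction. Ankrd2 was at -0.010 with no filter and -0.0099 with at least 10 counts. Without the 4 libraries low in leukocyte markers, MOV mimic against MOV control gave 0.099 for Xirp1, 0.097 for Xirp2, 0.25 for Mustn1, 0.40 for Igfn1 and 0.20 for Flnc, Xirp2 was at -0.13 in MOV control against sham control, Hspb7 at 0.063 in sham mimic against sham control, and Mustn1 at 0.10 in the interaction. Ranges over the libraries left out that crossed 0 in sham mimic against sham control were -0.13 to 0.15 for Ankrd2 (highest without sham mimic replicate 3), -0.16 to 0.44 for Csrp3 and -0.0036 to 0.30 for Fhl1 (both lowest without sham mimic replicate 2), and -0.71 to 0.032 for Igfn1 and -0.21 to 0.12 for Hspb7 (both highest without sham control replicate 3). In MOV mimic against MOV control they were -0.22 to 0.22 for Ankrd2 (lowest without MOV mimic replicate 4), -0.64 to 0.15 for Xirp1 and -0.66 to 0.13 for Flnc (both highest without MOV control replicate 4), and -0.37 to 0.091 for Igfn1 (highest without MOV control replicate 5). They were -0.099 to 0.31 for Xirp1 and -0.039 to 0.36 for Flnc in MOV mimic against sham mimic (both lowest without MOV mimic replicate 3). In the interaction they were -0.21 to 0.22 for Ankrd2 (lowest without MOV mimic replicate 4) and -0.20 to 0.59 for Igfn1 (lowest without sham control replicate 3). The lowest count of a member was 72 (Igfn1), and the share of counting error in its spread was not tested.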
